A study of Mus musculus with 6 samples.

Results

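The Tcl1 family of the mouse comprises Tcl1 and the 5 Tcl1b genes, Tcl1b1 to Tcl1b5, which lie side by side on chromosome 12. The genes were chosen by symbol: 6 members of 23308 symbols in the deposited tables, and all 6 were found in every table. TCL1 proteins are small proteins that bind the pleckstrin homology domain of the kinase AKT and raise its activity, so they are known as AKT coactivators. In humans TCL1 is best known from T-cell leukaemias in which a chromosomal rearrangement switches it on. In the mouse, Tcl1 is a transcript of the growing oocyte, and females without it are known to have embryos that cleave poorly.

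RNA was sequenced from 6 pools of 60 oocytes or embryos, 1 library a pool, collected from hormone-primed females aged 21 to 23 days on an ICR background. The females were of 2 kinds: YAP-/- females, whose oocytes and embryos are labelled as deleted for Yap1, and wild-type (WT) females. Embryos at the 4-cell stage, obtained by mating, gave 1 YAP-null and 1 WT library, and oocytes at the germinal vesicle (GV) stage, before meiotic maturation, gave 2 YAP-null and 2 WT libraries. The labels of the 4-cell samples conflict: their title and stage field say 4-cell, and were followed here, while their source field names GV oocytes. The labels give neither the cells in which Yap1 was deleted nor the genotype of the fathers. They do not say that the libraries of a group came from separate animals, so p-values speak only for these libraries. Yap1 encodes YAP, a coactivator of transcription that the Hippo pathway restrains, and the series is about YAP of the oocyte in the activation of the early embryonic genome.

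The labels were checked on Yap1 itself and on cell type markers. Yap1 was at 33.3 FPKM in YAP-null embryos, against 89.7 FPKM in WT embryos, and at 10.8 and 10.04 FPKM in YAP-null oocytes, against 248 and 153.5 FPKM in WT oocytes (FPKM counts fragments per transcript length and sequencing depth). The YAP-null embryos thus stood at 320% and the WT embryos at 44.7% of the mean Yap1 level in oocytes of their genotype. The name YAP-null embryo follows the labels and does not mean that Yap1 RNA was absent. The source of this RNA was not tested. Of 11 measured genes of the cleavage embryo 10 were higher in the 4-cell libraries, and of 12 oocyte genes 11 were lower, both by the limma test of stage described below. Granulosa and cumulus cell genes summed to 42.0 and 45.5 FPKM in YAP-null and 47.0 and 50.6 FPKM in WT GV libraries. Lymphocytes also express Tcl1 in adult mice. Of the 11-gene lymphocyte list, which summed to 24.4 to 42.6 FPKM in oocytes, Ms4a1 supplied the most, at 23.3 to 35.8 FPKM. Cd4 was at 0.223 and 6.49 FPKM in YAP-null oocytes and 0.737 and 5.99 FPKM in WT oocytes, Cd8a, Lck and Cd2 reached at most 0.261 FPKM, and Ptprc, Cd79a, Cd79b, Cd3e and Cd3g were listed at 0 in all 4 GV libraries. Relative depth, with WT GV library 1 set to 1, was 0.797 in the YAP-null and 0.977 in the WT 4-cell library, and 0.314 and 0.401 in YAP-null and 0.375 in the other WT GV library.

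The cluster covered 75.7 kb of chromosome 12 in mm9, chr12:106385243-106460947, in the order Tcl1b2, Tcl1b1, Tcl1b5, Tcl1b3, Tcl1b4 and Tcl1. The first 5 are on the plus strand and Tcl1 on the minus strand in the RefSeq table used for sequences, whose build is GRCm38.p6. The Tcl1b genes are close copies of each other. Their coding sequences were 72.3% to 86.3% identical over the 10 pairs, and each was 50.8% to 52.7% identical to that of Tcl1. All transcripts considered are short, from 1009 bases (Tcl1b2) to 1398 bases (Tcl1), with coding sequences of 351 to 369 bases.

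The similarity bears on the values, because reads from shared stretches can be assigned to the wrong copy. For Tcl1 100% of the 50-base windows of its transcript occurred in no other mouse gene, and for Tcl1b4 95.7%, Tcl1b1 87.0%, Tcl1b5 79.2%, Tcl1b2 68.7% and Tcl1b3 65.9%. The shared windows were shared within the Tcl1b genes alone. Values of Tcl1b2, Tcl1b3 and Tcl1b5 are therefore the least certain as single genes. How shared reads were counted is not known, and its effect on the sum was not tested.

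The promoter windows, too, are alike among the Tcl1b genes and differ from that of Tcl1. The windows shown run from 250 bases before to 50 bases after the annotated start, 5′ to 3′ on the gene's own strand, at chr12:105202145-105202444 for Tcl1b4, chr12:105190795-105191094 for Tcl1b3 and chr12:105222688-105222987 for Tcl1. Tcl1b4 is shown because its ratio of FPKM between the 4-cell libraries was the highest of the 6, Tcl1b3 because it was the highest relative to its oocyte level in the YAP-null embryos, and Tcl1 because its window is the least like the others. Capitals mark the 25-base run that is the longest shared by the 5 Tcl1b windows. The run begins at base 1 of the Tcl1b3 window, so its length is limited there by the window's edge. In Tcl1b4 capitals also mark the later CATTCC, which is the TEAD-type motif GGAATG on the other strand.
Tcl1b4: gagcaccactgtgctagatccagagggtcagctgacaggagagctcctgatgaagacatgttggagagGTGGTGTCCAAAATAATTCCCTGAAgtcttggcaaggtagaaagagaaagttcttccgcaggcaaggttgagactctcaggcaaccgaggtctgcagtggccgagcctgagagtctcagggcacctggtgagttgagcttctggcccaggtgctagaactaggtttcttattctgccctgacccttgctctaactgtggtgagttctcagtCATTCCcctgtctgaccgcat
Tcl1b3: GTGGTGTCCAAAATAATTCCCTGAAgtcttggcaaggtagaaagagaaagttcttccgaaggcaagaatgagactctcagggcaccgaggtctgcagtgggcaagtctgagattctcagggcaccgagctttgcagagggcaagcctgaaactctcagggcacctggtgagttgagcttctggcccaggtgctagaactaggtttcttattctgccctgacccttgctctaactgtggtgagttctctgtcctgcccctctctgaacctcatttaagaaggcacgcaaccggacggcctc
Tcl1: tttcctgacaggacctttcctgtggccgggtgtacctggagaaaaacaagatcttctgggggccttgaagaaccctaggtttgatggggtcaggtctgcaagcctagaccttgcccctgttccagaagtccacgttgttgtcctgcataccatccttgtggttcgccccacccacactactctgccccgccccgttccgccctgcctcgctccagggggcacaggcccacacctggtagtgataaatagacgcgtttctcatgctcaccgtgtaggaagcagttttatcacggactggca

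In pairwise alignment, identity between Tcl1b windows was 66.0% to 98.6%, the highest between Tcl1b2 and Tcl1b4, and with the Tcl1 window it was 45.9% to 49.9%. The 25-base run occurred in 0 of the other promoter windows of the table, which holds 32851. The motif GGAATG, bound by the TEAD factors through which YAP acts, was found on either strand in 4 of the 6 windows, those of Tcl1b1, Tcl1b2, Tcl1b4 and Tcl1b5, and in 14.7% of all windows. In all 4 it began 2 to 29 bases after the annotated start and lies in sequence that these copies share. An E-box, CANNTG, was found in 6 of 6 windows and in 72.3% of all windows. TAATCC (bicoid-class homeobox factors), TAATTG (Nobox) and TATAAA were in 0 of the 6 windows and in 7.06%, 8.0% and 13.6% of all windows.

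At the 4-cell stage the family was abundant in the YAP-null library and nearly gone in the WT library. Summed over the 6 genes it stood at 1043 FPKM in YAP-null embryos, against 34.1 FPKM in WT embryos, 30.6-fold higher, while GV oocytes held 1983 and 1127 FPKM in the YAP-null and 1767 and 1216 FPKM in the WT libraries. Thus the YAP-null embryos held 67.1% of the mean YAP-null oocyte level and the WT embryos 2.29% of the mean WT oocyte level. With 1 library per genotype at this stage the spread between embryo samples is unknown, and the 4-cell difference was described by its size, with no test.

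Tcl1, the most abundant member, was at 446 FPKM in YAP-null embryos, against 11.3 FPKM in WT embryos, 39.7-fold higher. Its 4 GV values were 1125 and 561 FPKM in YAP-null oocytes and 1045 and 626 FPKM in WT oocytes. The YAP-null embryos thus lay below every oocyte library but far nearer to them than the WT embryos did. In rank, Tcl1 was between 14th and 55th of all symbols in the oocyte libraries, 86th in the YAP-null and 5055th in the WT 4-cell library.

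Tcl1b1 was at 211 FPKM in YAP-null embryos, against 9.57 FPKM in WT embryos, and at 368 and 241 FPKM in YAP-null oocytes and 328 and 263 FPKM in WT oocytes. Tcl1b2 stood at 100.7 FPKM in YAP-null embryos, against 6.21 FPKM in WT embryos, and at 236 and 151 FPKM in YAP-null oocytes and 179 and 148 FPKM in WT oocytes. Both followed Tcl1: the YAP-null embryos were below all oocyte libraries and 22.1-fold (Tcl1b1) and 16.2-fold (Tcl1b2) above the WT embryos. Both 4-cell libraries were thus below every oocyte library for 3 of 6 members, beside 35.2% of 11451 genes. The Tcl1b proteins are less studied than Tcl1, and no role of a single Tcl1b gene is given here.

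The other 3 genes were, in YAP-null embryos, above every oocyte library (Tcl1b3 and Tcl1b5) or among them (Tcl1b4). Tcl1b3 was at 168 FPKM in YAP-null embryos, against 4.37 FPKM in WT embryos, and at 111 and 90.6 FPKM in YAP-null oocytes and 104 and 95.6 FPKM in WT oocytes, so the YAP-null embryos exceeded every oocyte library. Across genes with an oocyte mean of at least 30 FPKM, 2.82% were above both oocyte libraries in YAP-null and below both in WT, as Tcl1b3 and Tcl1b5 were. Tcl1b5, the lowest member in oocytes, stood at 35.9 FPKM in YAP-null embryos, against 1.95 FPKM in WT embryos, and at 34.3 and 24.5 FPKM in YAP-null oocytes and 31.6 and 31.0 FPKM in WT oocytes. Tcl1b4 was at 81.6 FPKM in YAP-null embryos, against 0.741 FPKM in WT embryos, 110-fold higher, and at 109 and 58.5 FPKM in YAP-null oocytes and 79.3 and 51.9 FPKM in WT oocytes. For Tcl1b4 the YAP-null embryos therefore lay between the oocyte libraries, and the WT embryos were under 1 FPKM.

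**Figure D1:**
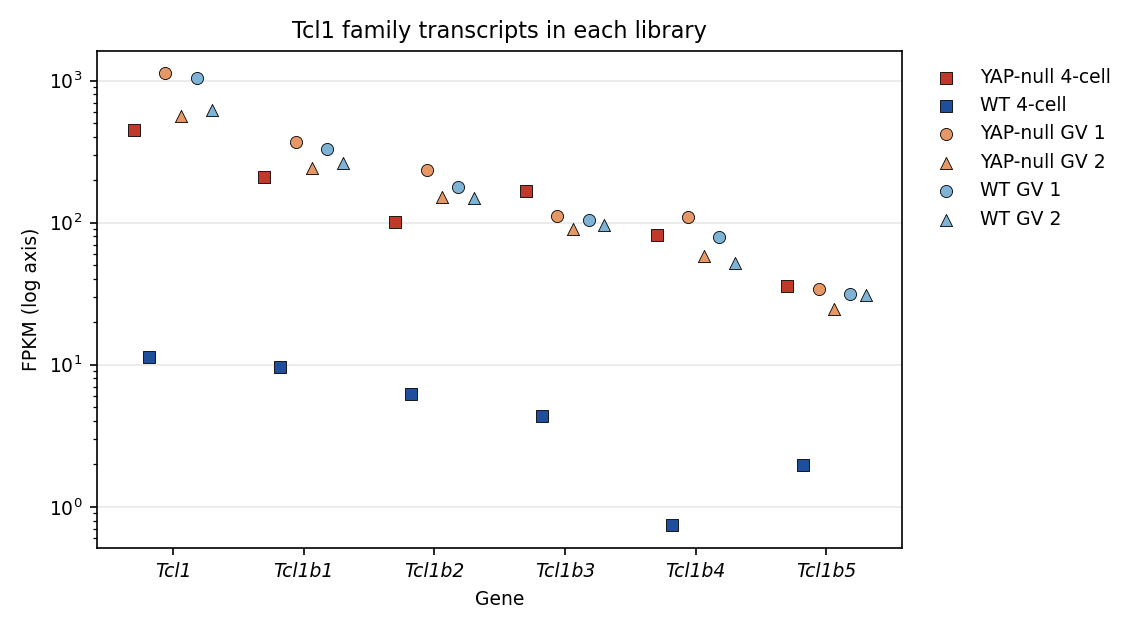
FPKM on a log axis of each Tcl1 family gene in each of the 6 libraries; squares are 4-cell libraries, circles and triangles GV libraries 1 and 2, red and orange YAP-null, dark and light blue WT. For every gene the WT 4-cell library (0.741 to 11.3 FPKM) lies far below the other 5, and the YAP-null 4-cell library lies near the oocyte libraries.

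On the log2(FPKM + 1) scale the 4-cell differences, YAP-null minus WT, were 5.57 for Tcl1b4, 5.19 for Tcl1, 4.97 for Tcl1b3, 4.33 for Tcl1b1, 3.82 for Tcl1b2 and 3.64 for Tcl1b5. The order depends on the pseudocount, since WT Tcl1b4 lay below 1 FPKM: with 5 FPKM added instead, Tcl1 was at 4.80, Tcl1b3 at 4.205, Tcl1b4 at 3.92, Tcl1b1 at 3.89, Tcl1b2 at 3.24 and Tcl1b5, then under 8-fold, at 2.56. The family median was 4.65 beside 0.05 over all 10854 genes averaging 1 FPKM or more in these libraries. On this scale all 6 members were at least 2-fold higher in the YAP-null library, as were 17.7% of all genes, and all 6 were at least 8-fold higher, as were 0.894% of all genes. Among genes with an oocyte mean of 30 FPKM or more, these shares were 26.6% and 2.85%. Ordered by difference, the members were 2nd (Tcl1b4), 4th (Tcl1), 5th (Tcl1b3), 18th (Tcl1b1), 35th (Tcl1b2) and 45th (Tcl1b5) of 10854. The deposited bounds of the value, whose confidence level the sources used here do not give, were widest relative to their midpoint for Tcl1b4 in the WT 4-cell library, at 0.203 to 1.22 FPKM. Of the 36 member values 19 lay above their own upper bound, none of them in the WT 4-cell library, so the bounds do not serve as intervals elsewhere.

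**Figure D2:**
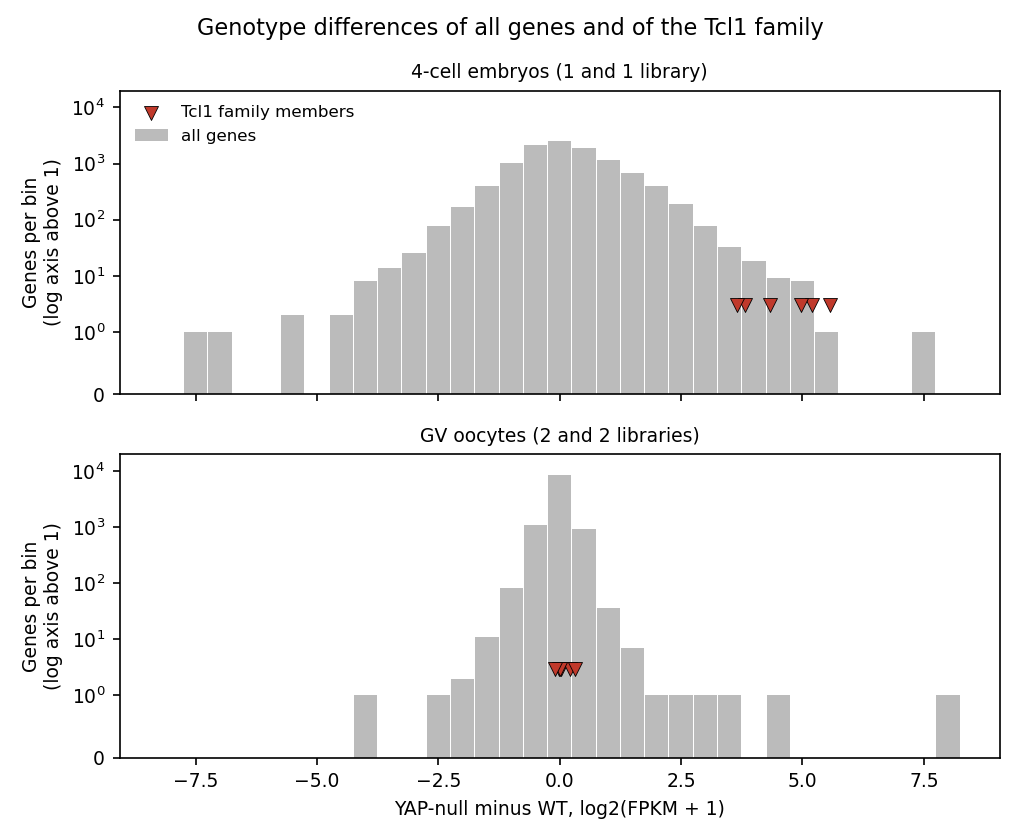
Number of genes per 0.5-wide bin of the difference YAP-null minus WT in log2(FPKM + 1), for 4-cell embryos (top) and GV oocytes (bottom), with the 6 Tcl1 family members as red triangles at a fixed height; the count axis is logarithmic above 1. The members lie between 3.64 and 5.57 in the right tail at the 4-cell stage and between -0.11 and 0.31 in the centre in oocytes.

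In the oocytes themselves the family did not separate the genotypes, with a sum of 1555 ± 605 FPKM in YAP-null and 1491 ± 390 FPKM in WT oocytes (SD, n = 2 each). Differences were -0.03 ± 0.545 (limma SE) for Tcl1, 0.02 ± 0.403 for Tcl1b1, 0.21 ± 0.395 for Tcl1b2, 0.01 ± 0.334 for Tcl1b3, 0.31 ± 0.468 for Tcl1b4 and -0.11 ± 0.353 for Tcl1b5 in log2(FPKM + 1), from 2 libraries each. The 2 YAP-null values overlapped the 2 WT values for all 6 genes, while the groups were apart for 10.8% of 10462 genes tested. In limma 0 of 6 members and 0 of all genes (0%) passed a Benjamini-Hochberg adjusted p of 0.05, and 22 genes, none of them a member, had an unadjusted p under 0.05. All adjusted p were 1.00. Yap1 itself, at -4.10 ± 0.387, had a limma adjusted p of 1.00 too, so with 2 libraries each this test also made no call for a gene whose libraries lay that far apart.

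The oocyte libraries of a genotype differed from each other. Library 1 was above library 2 for 6 of 6 members in both genotypes, by 1.23-fold (Tcl1b3) to 2.00-fold (Tcl1) in YAP-null and by 1.02-fold (Tcl1b5) to 1.67-fold (Tcl1) in WT oocytes. Nlrp5, a gene of the subcortical maternal complex chosen here after its values were seen, went the other way, at 17.9 and 728 FPKM in YAP-null libraries 1 and 2 and 13.6 and 781 FPKM in WT libraries 1 and 2. The labels do not say what the number stands for. Over 10462 genes the difference of library 1 minus library 2 correlated between the genotypes (r = 0.849). The share of all genes with library 1 above library 2 in both genotypes was not counted, so the 6 of 6 cannot be set against it.

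The order of the members was the same in all 4 oocyte libraries: Tcl1, Tcl1b1, Tcl1b2, Tcl1b3, Tcl1b4, Tcl1b5 from high to low. Over the 4 libraries the means were 839 ± 287, 300 ± 58.4, 178.5 ± 40.7, 100.4 ± 9.14, 74.6 ± 25.6 and 30.3 ± 4.13 FPKM (SD, n = 4) in that order. The ranges of Tcl1b3 (90.6 to 111 FPKM) and Tcl1b4 (51.9 to 109 FPKM) overlapped across libraries, although Tcl1b3 was the higher of the pair within each of the 4; no other neighbours in the order overlapped. In the YAP-null 4-cell library Tcl1b3 stood above Tcl1b2, and in the WT 4-cell library Tcl1b5 stood above Tcl1b4.

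The make-up of the family therefore shifted between stages. Tcl1 made up 42.8% of the summed FPKM in the YAP-null and 33.0% in the WT 4-cell library, against 56.7% and 49.8% in YAP-null and 59.1% and 51.5% in WT oocytes. Tcl1b3 made up 16.1% in the YAP-null and 12.8% in the WT 4-cell library, and 5.61% to 8.04% in oocytes. Tcl1b5 made up 3.44% in the YAP-null and 5.73% in the WT 4-cell library, and 1.73% to 2.55% in oocytes. Both embryo libraries thus had a smaller share of Tcl1 and larger shares of Tcl1b3 and Tcl1b5 than any oocyte library. They parted on Tcl1b1, at 20.2% in the YAP-null and 28.1% in the WT 4-cell library with 18.6% to 21.7% in oocytes, on Tcl1b4, at 7.82% in the YAP-null and 2.17% in the WT 4-cell library with 4.27% to 5.49% in oocytes, and on Tcl1b2, at 9.65% and 18.2% in the YAP-null and WT 4-cell libraries with 10.1% to 13.4% in oocytes. The WT 4-cell shares come from 1 library with a family sum of 34.1 FPKM. Tcl1b3, Tcl1b5 and Tcl1b4 were at only 4.37, 1.95 and 0.741 FPKM there, so these shares are imprecise. How far the shares of the Tcl1b genes depend on the assignment of shared reads was not tested.

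**Figure D3:**
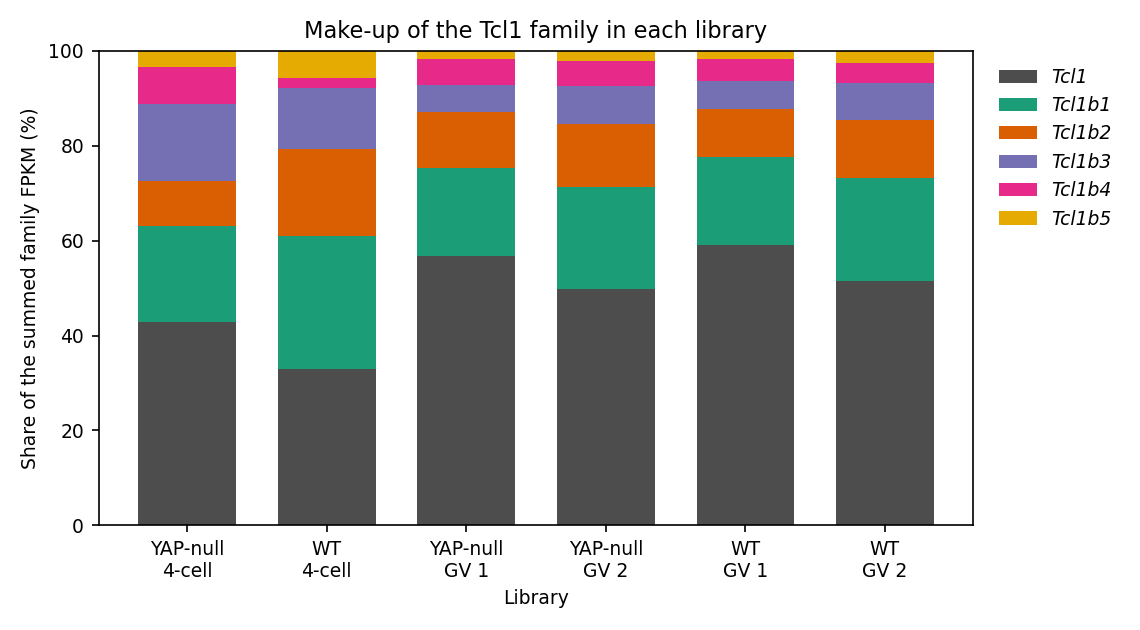
Share in percent of each gene in the summed FPKM of the Tcl1 family, 1 bar per library, the 4-cell libraries at the left. Tcl1 fills 33.0% to 42.8% of the 4-cell bars and 49.8% to 59.1% of the GV bars, and Tcl1b4 is thinnest in the WT 4-cell bar.

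The next comparison asked how the family changes from oocyte to 4-cell embryo, with both genotypes in 1 limma model of genotype and stage. The SE and p-values of this model rest on 2 things that it cannot separate. They are the spread between libraries and any difference in stage change between the genotypes, which was large for the members, as given below. The stage difference, 4-cell minus GV in log2(FPKM + 1), was negative for all 6 members and 3 of 6 passed: Tcl1 at -3.44 ± 1.14 (SE, adjusted p = 0.0413), Tcl1b1 at -2.65 ± 0.932 (adjusted p = 0.0497) and Tcl1b2 at -2.70 ± 0.799 (adjusted p = 0.0277). Tcl1b4 (-2.60), Tcl1b3 (-1.75) and Tcl1b5 (-1.58) did not pass, at adjusted p of 0.0888, 0.192 and 0.140 in limma. With no filter on low values 0 of 6 passed (adjusted p = 0.214 for Tcl1, 0.222 for Tcl1b1 and 0.152 for Tcl1b2), and Tcl1b1 also missed with a pseudocount of 0.1 or 5 FPKM or with libraries scaled to a common sum (adjusted p of 0.0503 to 0.0566). Of all 11451 genes 27.8% passed as lower at the 4-cell stage. The family median was -2.62, beside -0.10 over all genes tested.

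These averages hide unlike genotypes. In WT the stage differences ran from -6.05 (Tcl1) to -3.45 (Tcl1b5), with Tcl1b4 at -5.23, and in YAP-null from -0.90 (Tcl1b2) to 0.74 (Tcl1b3), in log2(FPKM + 1). In the same limma model without the YAP-null 4-cell library, the stage difference equals that of WT by construction. Without the WT 4-cell library it equals that of YAP-null, so neither fit adds to these values. In these fits the lone embryo library is assumed to vary like the oocyte libraries. Among the oocyte libraries, 0 members passed without WT GV library 1 and 1 (Tcl1b2) without WT GV library 2. The difference in stage change between the genotypes was not tested, since it rests on 1 embryo library each.

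As a share of the mean oocyte level, the YAP-null 4-cell library held 53.0% of Tcl1, 69.3% of Tcl1b1, 52.1% of Tcl1b2, 166% of Tcl1b3, 97.5% of Tcl1b4 and 122% of Tcl1b5. The WT 4-cell library held 1.35% of Tcl1, 3.24% of Tcl1b1, 3.80% of Tcl1b2, 4.37% of Tcl1b3, 1.13% of Tcl1b4 and 6.24% of Tcl1b5. FPKM are relative to each library, so these shares do not give amounts of RNA per embryo. Whether the RNA in embryos came from the oocyte was not tested. The family medians were 83.4% and 3.52%, beside 57.5% in YAP-null and 46.9% in WT over 2803 genes with that oocyte mean. With limits set from the members' own values, and so as a description alone, 54.8% of these genes held at least 50% of the oocyte level in YAP-null embryos and 16.5% held under 7% in WT embryos. Both held for 18 genes, 0.642% of the 2803 and 3.9% of those under 7% in WT, with the 6 members among them by construction. The 12 others include Wee2, a kinase gene that keeps the oocyte in meiotic arrest, at 55.0% and 4.13%, Dcp1a, an mRNA decapping gene, at 56.8% and 6.71%, and Smad3, a TGF-beta signalling gene, at 50.5% and 6.94% (YAP-null and WT); these 3 were picked for their known roles after their values were seen.

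**Figure D4:**
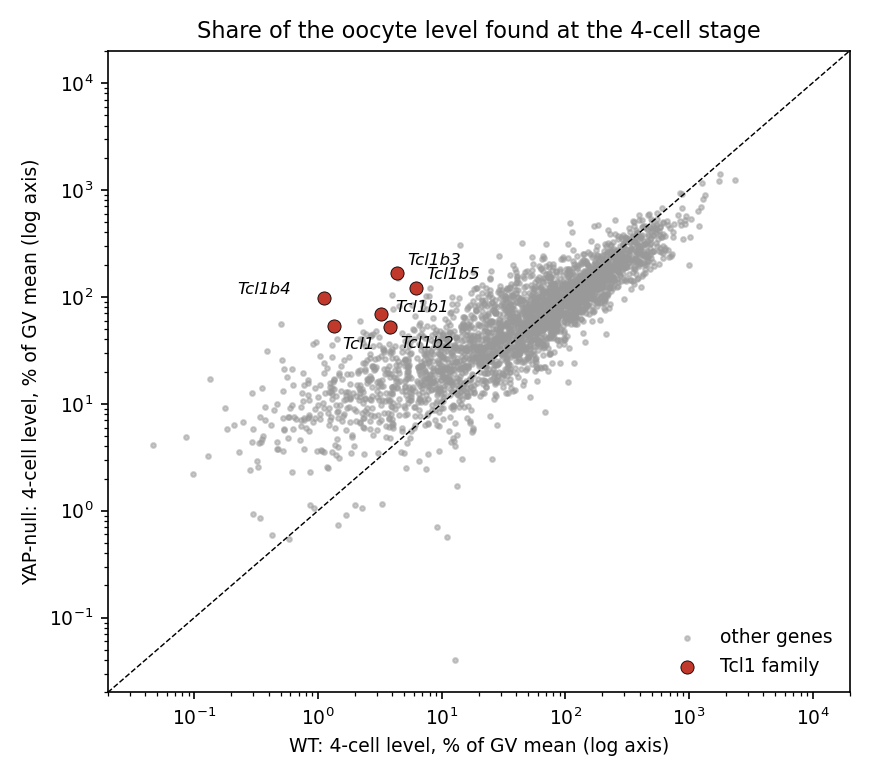
4-cell level as a percentage of the mean GV level of the same genotype, YAP-null on the vertical and WT on the horizontal log axis, for genes with an oocyte mean of at least 30 FPKM; grey points are other genes, red points the Tcl1 family, the dashed line equal shares, and 15 genes at 0 in either library are not drawn. The family lies above the line at 52.1% to 166% in YAP-null and 1.13% to 6.24% in WT.

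Other oocyte transcripts were also higher in the YAP-null 4-cell library, and their values belong beside those of the family. All 12 genes of the oocyte marker list were at least 2-fold higher there, with sums of 1211 FPKM in YAP-null embryos, against 169 FPKM in WT embryos, 7.15-fold higher. In GV oocytes the list summed to 8001 and 11330 FPKM in YAP-null and 8840 and 11897 FPKM in WT libraries. The YAP-null embryos held 12.5% and the WT embryos 1.63% of the mean oocyte sum. Single oocyte genes stood at 4.87% to 25.4% of their oocyte level in YAP-null and 0.0850% to 4.34% in WT embryos. In the YAP-null library each Tcl1 family gene thus stood at a larger share of its oocyte level than each of these 12 genes. Of other cell types, red blood cell genes summed to 25.9 FPKM in YAP-null embryos, against 93.6 FPKM in WT embryos, lymphocyte genes to 10.5 and 6.03 FPKM (with Cd79a at 4.15 and 0.733 FPKM), and granulosa and cumulus genes to 94.0 and 182 FPKM, of which Nr5a2, also a gene of the embryo, gave 92.1 and 179 FPKM. Genes of the cleavage embryo were mixed. In the YAP-null library 0 of 11 were at least 2-fold higher, beside 17.7% of all genes. At least 2-fold lower were 3 of 11, beside 9.97% of all genes. The median difference was -0.63 in log2(FPKM + 1), while Zscan4d (0.88), Pou5f1 (0.64), Zscan4c (0.60) and Zfp352 (0.60) were higher in YAP-null. Gata6, needed in the embryo for its primitive endoderm, stood at 5.03 FPKM in YAP-null embryos, against 52.1 FPKM in WT embryos, and Tdgf1, whose product is a co-receptor for Nodal, stood at 6.48 FPKM, against 41.8 FPKM in WT embryos; these 2 were chosen after their values were seen. In bulk samples, fewer cells of a type and less RNA per cell cannot be told apart, and the part of these cell types in the family's difference was not tested.

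Mtcp1, the remaining gene of the TCL1 family, lies apart from the cluster on chromosome X and is not a member here. It was at 9.15 FPKM in YAP-null embryos, against 0.800 FPKM in WT embryos, and at 43.8 and 24.8 FPKM in YAP-null oocytes and 37.5 and 22.7 FPKM in WT oocytes. It fell between the stages by 2.91 ± 0.604 on the log2(FPKM + 1) scale (SE, limma adjusted p = 0.00751). The YAP-null embryos held 26.7% and the WT embryos 2.66% of the oocyte level of Mtcp1.

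Genes on either side of the cluster differed less than its members. Within 500 kb on either side the tables list 15 other gene models, none closer than 106 kb, and 8 had a mean of at least 1 FPKM. Bdkrb1, a bradykinin receptor gene, was at 3.002 FPKM in YAP-null embryos, against 0.363 FPKM in WT embryos, and Snhg10, a small nucleolar RNA host gene, at 9.64 and 3.02 FPKM. On the log2(FPKM + 1) scale these 2 of 8 were at least 2-fold higher in YAP-null embryos, beside 17.7% of all genes. At least 2-fold lower were 0 of 8, beside 9.97%, and at least 8-fold higher 0 of 8, beside 0.894%. In plain FPKM Bdkrb1 was 8.27-fold higher. The nearest expressed neighbour, Glrx5, a glutaredoxin gene of iron-sulphur cluster assembly, stood at 97.5 FPKM in YAP-null embryos, against 49.8 FPKM in WT embryos. Dicer1, which encodes the ribonuclease that makes small RNAs, differed by 0.71, Gskip, which encodes a GSK3-binding protein, by 0.28, the autophagy gene Atg2b by -0.23, the adenylate kinase gene Ak7 by -0.44 and the nuclear envelope gene Syne3 by -0.75 in log2(FPKM + 1), YAP-null minus WT.

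The kinases that TCL1 proteins bind, and the pathway around them, were described from a list of 40 genes of AKT signalling. At the 4-cell stage 7 of 34 measured genes were at least 2-fold higher and 1 was at least 2-fold lower in the YAP-null library, beside 17.7% and 9.97% of all genes. The list median was 0.44 in log2(FPKM + 1). Akt1 was at 82.3 FPKM in YAP-null embryos, against 33.0 FPKM in WT embryos, and Akt2 at 52.9 and 42.8 FPKM. In oocytes Akt1 stood at 48.2 and 64.9 FPKM in YAP-null libraries and at 51.9 and 60.5 FPKM in WT libraries, so the YAP-null embryos stood above and the WT embryos below all oocyte libraries.

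Other AKT pathway genes among those with the largest 4-cell differences in the higher direction were Pik3r1, a regulatory subunit of PI3 kinase, at 18.4 FPKM in YAP-null embryos, against 4.28 FPKM in WT embryos, and Kit, the oocyte receptor for Kit ligand, at 16.4 and 4.44 FPKM. In the lower direction they were Bad, a proapoptotic gene whose product AKT phosphorylates, at 4.05 and 16.2 FPKM, Mlst8, a subunit of the mTOR complexes, at 8.74 and 15.2 FPKM, Cdkn1a, a cyclin-dependent kinase inhibitor gene, at 37.7 and 55.1 FPKM, and Pik3cb, a catalytic subunit of PI3 kinase, at 49.8 and 61.4 FPKM. In GV oocytes 0 of 33 measured genes passed limma. Between stages 8 of 35 rose and 6 of 35 fell in the 4-cell libraries in limma, beside 28.2% and 27.8% of all genes. Those that rose included Pik3cb, Pik3r2, Mlst8, Gsk3b, Foxo4, Cdkn1a and Trib3, with Pik3cb at 3.01 ± 0.318 (SE, adjusted p = 0.00066). Those that fell were Pik3cd, Foxo1, Foxo3, Cdkn1b, Kit and Igf1r, with Kit at -3.26 ± 0.441 (adjusted p = 0.0015).

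Among 6211 other genes averaging 10 FPKM or more, the profile over the 6 libraries closest to that of the summed family was that of E330034G19Rik. Likeness was the root mean square distance between profiles of log2(FPKM + 1), each centred on its mean, and was 0.0713 for this gene, which was at 522 FPKM in YAP-null embryos, against 17.5 FPKM in WT embryos, and at 1170 and 594 FPKM in YAP-null oocytes and 947 and 641 FPKM in WT oocytes. It was nearer to the family sum than Tcl1b1 (0.235) and Tcl1 (0.258), which are themselves part of that sum. The next in order were C87414 (0.273), AU022751 (0.318), Sytl4 (0.382), AA545190 (0.386), the homeobox gene Obox5 (0.387), Trim75 (0.4002), Gm3259 (0.407), Gm6367 (0.427) and E330021D16Rik (0.441). Obox5 was at 270.5 FPKM in YAP-null embryos, against 19.2 FPKM in WT embryos, and at 1080 and 472 FPKM in YAP-null oocytes and 904 and 479 FPKM in WT oocytes. The 4-cell values behind this likeness come from 1 library per genotype.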

How the data were processed

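The authors deposited 1 gene table per library with FPKM values and a lower and upper bound of each, per the file headers. TopHat, CASAVA 1.8 and the build mm9 are named in the submitters' processing notes; the sources used here do not give the quantification tool, its treatment of reads shared between copies or the annotation. Of 23813 lines, 14 marked as failed in any library were dropped, and FPKM were added up for 260 symbols with more than 1 locus. Read totals are unknown; relative depth came from genes whose bounds mark the same small number of fragments in both libraries (6 genes for the YAP-null 4-cell library, so approximate). Start positions in the tables count from 0 and were raised by 1.

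Values were compared as log2(FPKM + 1) for genes averaging 1 FPKM or more over the libraries compared, two-sided, with limma 3.58.1 (limma-trend, R 4.3.3) at a Benjamini-Hochberg adjusted p of 0.05; a fold change on this scale understates changes of low genes. The 4-cell genotypes were compared by size alone. Members, gene lists, naming rules and alternatives (pseudocount, low-value filter, scaling, single libraries, replicate block) were chosen with earlier results of these data known. Named genes were the members, Mtcp1 and Yap1, expressed neighbours, AKT genes passing a test or with the 4 largest 4-cell differences each way, and the 10 closest profiles. Promoters are from RefSeq (GRCm38.p6; 6 of 6 members matched), transcripts from GENCODE M21, aligned with Biopython 1.88. Some genes that these rules name are not reported here.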

Additional observations from a re-analysis of the deposited data

Results flagged for a closer look

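For 2 members the stage change went opposite ways in the genotypes in every library: the YAP-null 4-cell library lay above both YAP-null GV libraries and the WT 4-cell library below both WT GV libraries. The 4-cell minus GV difference in log2(FPKM + 1) was 0.74 in YAP-null and -4.23 in WT for Tcl1b3, and 0.30 in YAP-null and -3.45 in WT for Tcl1b5. The difference between the genotypes was not tested, as each rests on 1 embryo library, and Tcl1b3 and Tcl1b5 share transcript stretches with other Tcl1b genes. Of 2803 genes with an oocyte mean of at least 30 FPKM, 79 (2.82%) showed the same pattern.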

How the results depend on the processing

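At the 4-cell stage all 6 members stayed at least 2-fold higher in YAP-null under every pseudocount, filter and scaling tried. All 6 also passed the 4-fold rule. An alternative was added after seeing the data: Mir762, at 88240 FPKM in YAP-null GV library 1, was left out and libraries were rescaled. Mir762 was at 0 FPKM in both 4-cell libraries, so at this stage that alternative only repeats the scaling to a common sum. The summed family was between 4.74 and 5.09 on the log2 scale. Single members moved more between pseudocounts of 5 and 0.1 FPKM, Tcl1b4 from 3.92 to 6.60, Tcl1b5 from 2.56 to 4.13 and Tcl1b3 from 4.205 to 5.23. The number of genes at least 2-fold apart was 1275 with a pseudocount of 5 FPKM, against 3007. Among the smaller set of genes averaging 5 FPKM or more it was 1723. By the 4-fold rule 696 genes were at least 4-fold apart. In oocytes some signs changed. Scaling libraries to a common sum took Tcl1b1 to -0.13 and Tcl1b3 to -0.14, against 0.0194 and 0.0088 with Mir762 left out of that scaling. Quantile normalization took Tcl1b3 to -0.0099. No member differences were called. Without 1 oocyte library they ranged from -0.53 to 0.48 (Tcl1), -0.29 to 0.32 (Tcl1b1), -0.11 to 0.53 (Tcl1b2), -0.14 to 0.15 (Tcl1b3), -0.13 to 0.75 (Tcl1b4) and -0.34 to 0.13 (Tcl1b5), with 2 to 7 genes passing, none of them members. For stage, 0 members passed with no low-value filter and 6 with 1 mean per genotype and stage; without 1 library 0 to 6 members and 2965 to 6332 genes passed (6408 with all libraries), and the differences ranged from -4.23 to 0.74 (Tcl1b3), -5.23 to 0.0313 (Tcl1b4) and -3.45 to 0.30 (Tcl1b5). The cause was not tested. Scaling to a common sum moved the median of all genes from -0.10 to -0.18 for stage, from 0.05 to 0.23 at the 4-cell stage and from -0.0035 to -0.13 in oocytes. With the replicate block 2 genes passed in oocytes, and 0 members; the differences of library 1 minus library 2 correlated between genotypes (r = 0.849 across 10462 genes), but the labels do not say that a number marks a shared animal or day, so the samples share only a number.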
